A study of Homo sapiens with 6 samples.

Results

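The albumin gene family with alpha-fetoprotein was read from RNA sequencing of HepG2, a line of human liver tumour cells that makes many of the proteins a hepatocyte secretes. Its members were chosen by symbol, not by their values: ALB, AFP, AFM and GC, 4 genes that lie on chromosome 4. Of these, 3 (ALB, AFP and AFM) were found among the 19846 genes of the deposited table, and GC, which encodes the vitamin D binding protein, was not analysed here. ALB and AFP were deep enough to be tested. AFM held 28 counts over all libraries and is described by its counts.

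Albumin, made by hepatocytes, is the main protein of blood plasma, where it carries fatty acids, bilirubin and many drugs. Alpha-fetoprotein is its counterpart before birth, made by the fetal liver and the yolk sac, then silenced in the adult liver and often made again by liver tumours. Afamin, the product of AFM, binds vitamin E and carries Wnt proteins. ALB, AFP and AFM arose by duplication and lie side by side in the same orientation. Liver factors of the C/EBP, HNF4 and FOXA families act on the albumin and alpha-fetoprotein promoters and enhancers.

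The study set 3 samples of cells grown flat in multiwell plates (2D) against 3 samples from a bioreactor of interwoven hollow fibers (3D). Both groups were HepG2 at passage 7 to 9, with no genetic change named in the labels, kept at 37 °C with 5% CO2. Each square centimetre of plate received 200000 cells in EMEM, renewed every 2 days. In the bioreactor a mixture of EMEM and DMEM in equal amounts, with 10% serum, circulated at 23.5 mL/min with a feed of 2 mL/hour and a gas flow of 200 mL/min, so that culture form, medium and feeding cannot be told apart. Whether replicates were separate cultures is not stated in the labels, and p-values then measure only the spread between these samples, which may be technical. No sequencing batch is given in the labels.

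Libraries held between 9530795 and 17943513 counts, and 3D replicate 1 was the smallest. All 10 hepatocyte markers examined were present, with a summed level of 34148 to 34610 CPM (counts brought to the same library size) in 2D and 20297 to 31142 in 3D. APOA1 and TF were called higher and APOB and AHSG lower by the test described further on. APOB was the most abundant, and the other 9 summed to 15713 to 17593 CPM in 2D and 15162 to 25051 CPM in 3D. Of 7 blood and macrophage markers, 2 (CD14 and CD68) had values, which summed to 7.95 to 11.2 CPM in 2D and 23.9 to 44.5 in 3D. CD68 was called higher, with means of 7.62 CPM in 2D and 32.0 CPM in 3D. CD14, at 1.52 and 2.15 CPM, was not called. Of 6 endothelial markers 4 had values, with sums of 2.05 to 4.85 and 3.02 to 6.14 CPM, and those tested were not called. For stromal cells 2 of 7 had values, with sums of 35.0 to 42.9 and 19.3 to 25.8 CPM, and both (PDGFRB and ACTA2) were called lower. Of 6 markers of yolk sac and gut epithelium, which also make AFP, 4 had values, and their sums were 466.5 to 509.0 CPM in 2D and 525.3 to 665.0 CPM in 3D. Nearly all of this came from VIL1, which was called higher, and from TTR and FOXA2, which were not called. TTR is also among the hepatocyte markers, and FOXA2 is among the liver regulators described further on. CDX2 and CDH17 had no values, and LGALS4 held 13 counts over all libraries. The part of these markers in the values below was not tested. In such bulk samples, fewer cells of a type and less RNA per cell cannot be told apart.

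On hg38 ALB spans chr4:73397114-73421413, AFP chr4:73431138-73456175 and AFM chr4:73481683-73504002, all on the plus strand, in the coordinates of the deposited table. The bases before the RefSeq start of each gene are shown because C/EBP genes are among the regulators described further on. The sequences run 5′ to 3′ on the plus strand of GRCh38.p14 and stop before the earliest exon that GENCODE release 29 places there. The RefSeq starts of ALB (73404287) and AFP (73436221) lie inside the longer gene models of the deposited table, whose earliest transcripts begin upstream, so these ALB and AFP bases are intronic in those transcripts. Capitals mark each match to TTNNGNAA, a motif of C/EBP factors, on either strand. The ALB sequence is chr4:73404037-73404238, the AFP sequence is chr4:73435971-73436162 and the AFM sequence is chr4:73481495-73481682.

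ALB: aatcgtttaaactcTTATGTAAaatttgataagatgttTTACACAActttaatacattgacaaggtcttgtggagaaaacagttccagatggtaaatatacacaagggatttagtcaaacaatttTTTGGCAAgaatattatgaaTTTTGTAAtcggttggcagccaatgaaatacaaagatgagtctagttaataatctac

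AFP: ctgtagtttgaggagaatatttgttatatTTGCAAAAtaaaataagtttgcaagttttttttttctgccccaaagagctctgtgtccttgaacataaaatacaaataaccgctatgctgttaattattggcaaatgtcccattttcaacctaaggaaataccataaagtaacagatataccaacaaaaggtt

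AFM: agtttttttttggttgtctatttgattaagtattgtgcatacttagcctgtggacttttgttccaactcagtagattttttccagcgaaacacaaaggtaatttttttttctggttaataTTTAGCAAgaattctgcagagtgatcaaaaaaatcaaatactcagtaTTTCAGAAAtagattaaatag

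Each of the 3 windows of 250 bases before the RefSeq start held TTNNGNAA on at least 1 strand, and 33.2% of 35116 RefSeq windows of that length held it. It matched in 4 places in ALB, beginning at -236, -212, -125 and -105 (bases counted back from the RefSeq start), in 1 place in AFP, at -221, and in 4 places in AFM, at -130, -83, -82 and -15. The AFM matches at -83 and -82 overlap on opposite strands, and the one at -15 lies beyond the end of the sequence shown. The forkhead motif TGTTTNC matched in 1 place in ALB and in 0 places in AFP and AFM (15.5% of all windows). CCAAT matched in 2 places in ALB, 1 in AFP and 0 in AFM (32.0% of all windows).

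The window of AFP held TATAAA at -29 and that of AFM at -30, both beyond the end of the sequences shown, while ALB held 0 matches to these letters (10.7% of all windows). The nuclear receptor motif AGGTCA and the longer NR5A2 motif CAAGGTCA, which contains it, matched in 0 places in the 3 genes (12.1% and 1.14% of all windows). The windows were rich in A and T, with 70.0% in ALB, 68.4% in AFP and 72.0% in AFM, against a median of 42.0% over all windows. The shares of all windows given for the motifs were not matched for A and T content, so they are not a like background for these 3 windows. A match is a description of the letters and not evidence of a bound site.

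ALB was among the most abundant transcripts of every library. For replicates 1, 2 and 3, ALB held 79348, 101260 and 137046 counts in 2D against 63520, 154903 and 188294 counts in 3D. Scaled by the trimmed mean of M-values (TMM), which sets libraries to a common composition, these were 4968, 6138 and 7606 CPM in 2D and 6300, 10008 and 13238 CPM in 3D. The highest 2D library lay above the lowest 3D library, so the groups overlapped, and 3D replicates 2 and 3 lay above all 2D libraries. The mean ALB level was 6237 ± 1322 CPM in 2D and 9849 ± 3472 CPM in 3D (SD, n = 3 each).

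The counting error of ALB was small beside this spread: the 79348 counts of 2D replicate 1 had an exact Poisson 95% interval of 78797 to 79902. Such intervals cover counting error only. The spread between replicates of a culture, pooled over both groups, was an SD of 0.44 on the log2 scale for ALB. Over the 83 genes with a mean of at least 1000 CPM the median of this SD was 0.20, and 6.02% of them had a larger one than ALB. ALB libraries lay -0.31, -0.00 and 0.31 from their group mean in 2D and -0.58, 0.09 and 0.49 in 3D, on the same log2 scale.

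AFP was as abundant as ALB. Its counts were 121075, 90368 and 134459 in 2D and 74135, 159334 and 150495 in 3D. The TMM-scaled levels were 7580, 5478 and 7463 CPM in 2D, and 7353, 10295 and 10581 CPM in 3D. In 2D the second replicate was the low one, and in 3D replicate 1 was again below the other two. 3D replicate 1 lay below 2D replicates 1 and 3, so that the groups overlapped here too.

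The mean AFP level was 6840 ± 1181 CPM in 2D and 9410 ± 1787 CPM in 3D (SD, n = 3 each). Scaled to the library total alone, with no correction for composition, the groups of AFP did not overlap: the levels were 7441, 5467 and 7493 CPM in 2D and 7778, 10023 and 10363 CPM in 3D. On that scale an exact two-sided permutation test of AFP gave p = 0.1, the smallest that 3 against 3 samples allow. On the TMM scale the same exact permutation test gave p = 0.3 for AFP and p = 0.2 for ALB. The TMM factor of 3D replicate 1, 1.06, was the highest of the 6 libraries, and the others lay between 0.975 and 1.01. The SD of AFP between replicates was 0.28 on the log2 scale, and 30.1% of the 83 abundant genes had a larger one.

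**Figure D1:**
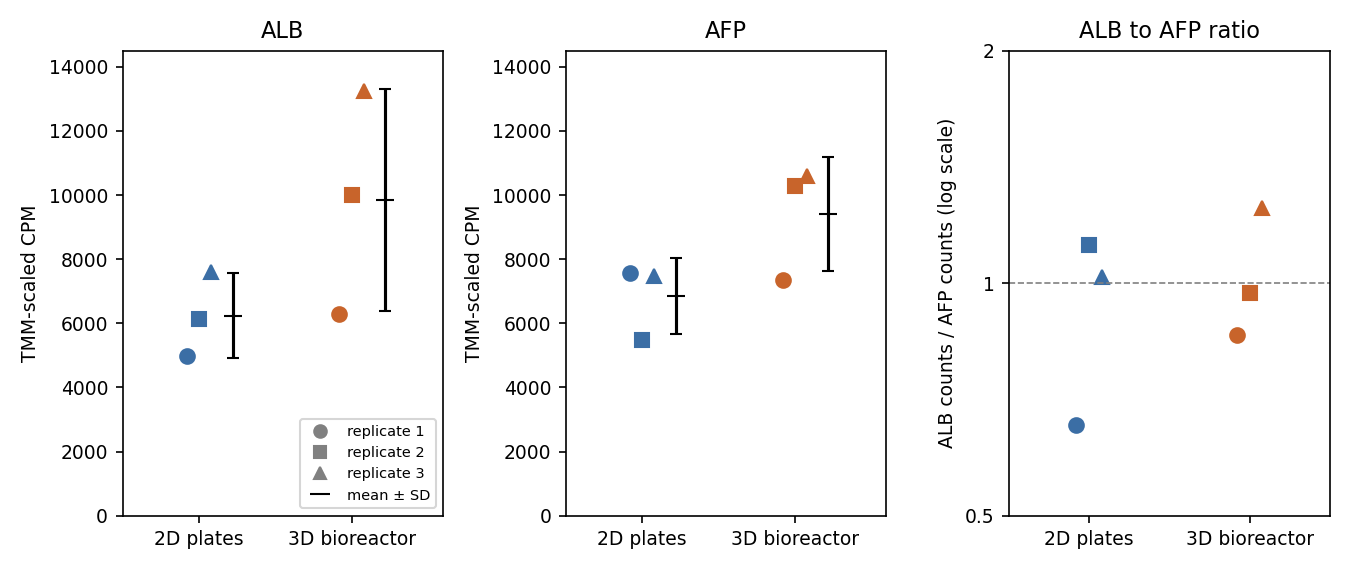
TMM-scaled CPM of ALB and AFP in each library (left and centre, axes from 0, marker shape for the replicate number, black bars for mean ± SD) and the ratio of ALB to AFP counts in each library (right, log axis, dashed line at 1). 3D replicates 2 and 3 lie above all 2D libraries for both genes, whereas 3D replicate 1 lies within the 2D range at 6300 CPM for ALB and 7353 CPM for AFP.

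AFM was close to the limit of detection. Its counts were 2, 4 and 6 in 2D and 3, 2 and 11 in 3D, and 3D replicate 3 held the most. A count of 3 corresponds to between 0.167 and 0.315 CPM in these libraries. The 2D libraries together held 12 AFM counts among 50743819 (0.236 CPM, exact Poisson 95% interval 6.20 to 21.0 counts), and the 3D libraries held 16 among 39951334 (0.400 CPM, 9.15 to 26.0 counts).

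The ratio of the AFM sums, 3D over 2D, was 1.69 with a counting interval of 0.752 to 3.92, which includes no difference. In single libraries the TMM-scaled AFM levels were 0.125, 0.242 and 0.333 CPM in 2D and 0.298, 0.129 and 0.773 CPM in 3D, and the groups overlapped (exact two-sided permutation p = 0.6, n = 3 each). A difference in AFM between the cultures was not detectable at this depth. The log2 ratio of the mean AFM levels, 0.78, turned to -0.14 without 3D replicate 3.

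Per length of transcript, ALB and AFP stood side by side and AFM far below. In TPM, a level per transcript length computed here with the summed exon length from GENCODE (3377 bases for ALB, 3259 for AFP and 2244 for AFM), ALB was at 4646, 5871 and 7465 in 2D and at 6204, 8659 and 11181 in 3D. AFP was at 7346, 5429 and 7589 TPM in 2D and at 7503, 9229 and 9260 TPM in 3D. AFM stayed between 0.168 and 0.983 TPM in the 6 libraries. TPM was computed and ranked over the 16427 genes with a GENCODE length only, and 3419 genes without a match were left out. Ranked so in each library, ALB came 23, 16 and 16 in 2D and 19, 14 and 12 in 3D. AFP came 16, 18 and 14 in 2D and 15, 13 and 14 in 3D. The order of ALB and AFP differed between libraries: ALB was the higher per length in 2D replicate 2 and 3D replicate 3, and AFP in the other 4. With the length of the longest transcript instead, ALB was also the higher in 2D replicate 3 (1.12 times AFP) and 3D replicate 2 (1.07 times AFP).

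Taken as a share of all counts, ALB and AFP together made up 1.23%, 1.16% and 1.51% of the 2D libraries and 1.44%, 1.98% and 2.33% of the 3D libraries. 2 of the 3 bioreactor libraries exceeded every plate library in this share, and 3D replicate 1 lay between the plate libraries.

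The difference between the cultures was tested with edgeR on counts over all 15314 genes that passed the low-count filter. ALB averaged 1.58-fold higher in 3D (95% interval 1.06 to 2.35), a log2 difference of 0.66 with a standard error of 0.26. The edgeR p was 0.0283 for ALB and 0.0698 after Benjamini-Hochberg adjustment, so ALB did not pass the threshold of 0.05. AFP averaged 1.38-fold higher (1.02 to 1.85), a log2 difference of 0.46 with a standard error of 0.20. Its edgeR p was 0.0369 and its adjusted p 0.0852, also short of the threshold.

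Neither tested member was called, whereas 36.6% of all tested genes were, 19% as higher and 17.6% as lower in 3D. The median log2 difference of all tested genes was 0.02. Of the tested genes, 16.2% had a larger log2 difference towards 3D than ALB and 23.8% a larger one than AFP. DESeq2, run on the same counts, gave log2 differences of 0.65 for ALB and 0.45 for AFP with adjusted p of 0.0150 and 0.0319, and so called both, where it called 18.8% of its tested genes as higher.

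In the edgeR fit with culture as its only term, both genes passed when 3D replicate 1 was left out. ALB then differed by 0.88 (log2, adjusted p = 0.00576, edgeR) and AFP by 0.60 (adjusted p = 0.0183, edgeR). Leaving out 3D replicate 3 instead brought ALB to 0.38 (adjusted p = 0.266, edgeR), and leaving out 2D replicate 2 brought AFP to 0.31 (adjusted p = 0.336, edgeR). ALB kept a positive estimate in all 18 alternative analyses and was called in 5 of them. AFP was positive in all 18 as well and was called in 2.

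**Figure D2:**
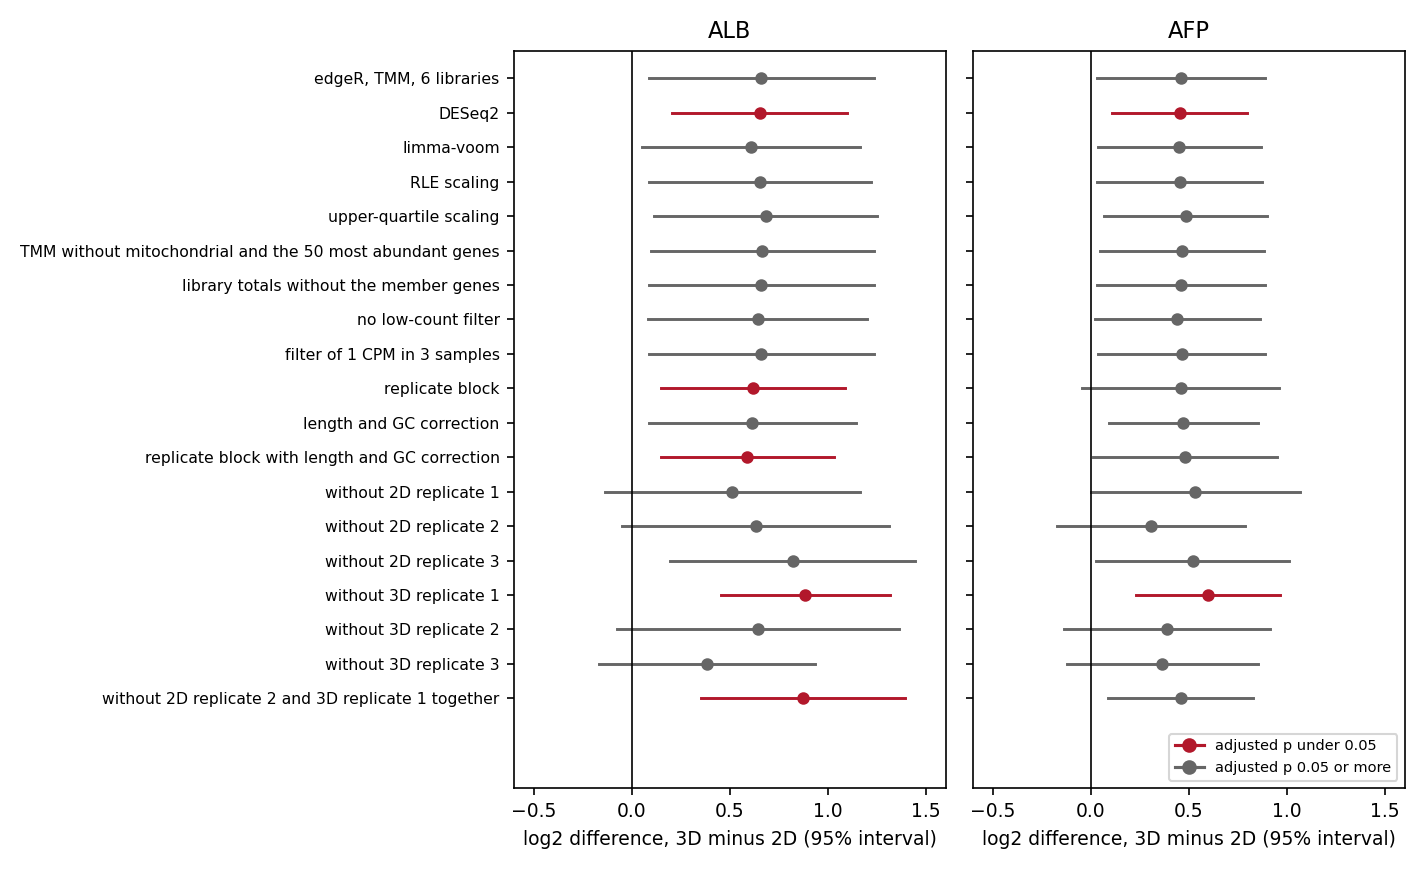
Log2 difference of ALB (left) and AFP (right), 3D minus 2D, with its 95% interval (horizontal line) in the analysis reported and in 18 alternatives, in red where the adjusted p was under 0.05. All estimates lie right of 0, from 0.38 to 0.88 for ALB and from 0.31 to 0.60 for AFP, and 5 alternatives for ALB and 2 for AFP are red.

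Set replicate by replicate, each 3D library against the 2D library of the same number, ALB was 1.27-fold, 1.63-fold and 1.74-fold higher in 3D on the TMM scale. For AFP these folds were 0.970, 1.88 and 1.42. ALB was therefore higher in 3D in 3 of the 3 sets of equal number and AFP in 2 of them, with AFP in replicate 1 close to equal. With library totals alone the folds were 1.37, 1.59 and 1.70 for ALB, and 1.05, 1.83 and 1.38 for AFP, so that AFP in replicate 1 changed its side of 1 with the scaling.

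Since nothing in the labels ties equal numbers to a shared culture, all 9 combinations of a 3D and a 2D library were also read. ALB was higher in the 3D library in 8 of 9, with folds from 0.828 to 2.66. The exception set 3D replicate 1 against 2D replicate 3. AFP was higher in 7 of 9 on the TMM scale (0.970 to 1.93) and in 9 of 9 with library totals (1.04 to 1.90). These combinations share libraries and are not independent.

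The balance of ALB to AFP does not depend on the scaling of a library, since both counts come from the same one. ALB counts were 0.655, 1.12 and 1.02 times those of AFP in 2D and 0.857, 0.972 and 1.25 times in 3D. The lowest ratio was that of 2D replicate 1 and the highest that of 3D replicate 3, and the groups overlapped. On the log2 scale the mean ratio was -0.14 ± 0.41 in 2D and 0.02 ± 0.28 in 3D (SD, n = 3 each). The difference of 0.16 was smaller than either SD (exact two-sided permutation p = 0.7, with 0.1 the smallest that 3 against 3 allow), and it turned to -0.08 without 2D replicate 1. Per kilobase of exon, ALB stood at 0.632, 1.08 and 0.984 times AFP in 2D and at 0.827, 0.938 and 1.21 times AFP in 3D.

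Within a group the members did not follow each other closely. In 2D, replicate 2 had the lowest AFP and the middle ALB level, and replicate 3 had the highest ALB while its AFP was beside that of replicate 1. In 3D, replicate 1 was lowest in both genes.

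The surroundings of the family were then read, from 1000000 bases before the start of ALB to the same distance after the end of AFM (chr4:72397114-74504002). Of 13 other genes there, 7 were tested, 1 was called higher and 1 lower, against the 19% and 17.6% of all tested genes. The called gene on the higher side was COX18, which encodes an insertase of the inner mitochondrial membrane and lies before ALB. COX18 was at 15.9, 16.4 and 17.3 CPM on plates and at 27.1, 29.7 and 25.0 CPM in 3D, with no overlap (log2 difference 0.72 ± 0.14 SE, adjusted p = 0.00244, edgeR).

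ANKRD17, which encodes an ankyrin repeat protein, was called lower (161 ± 10.5 against 125 ± 14.4 CPM, SD, n = 3 each, log2 difference -0.36, adjusted p = 0.0414, edgeR). It was called in 9 of the 18 alternatives and had the other sign in 2. The pseudogene HMGA1P2 lies inside ANKRD17 on the other strand, and reads of these genes cannot be told apart because the handling of strand is not given. Further along, the chemokine gene CXCL8 (log2 difference -0.67, adjusted p = 0.199, edgeR) the folate enzyme gene MTHFD2L (-0.32, adjusted p = 0.154, edgeR) and the EGF family genes AREG (-0.64, adjusted p = 0.0536, edgeR) and EREG (-0.00, adjusted p = 0.998, edgeR) did not pass. The median log2 difference of the 7 neighbours was -0.32. ALB and AFP had positive estimates, as did COX18 and HMGA1P2, while the tested genes on the side of AFM had negative ones, EREG at almost 0.

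**Figure D3:**
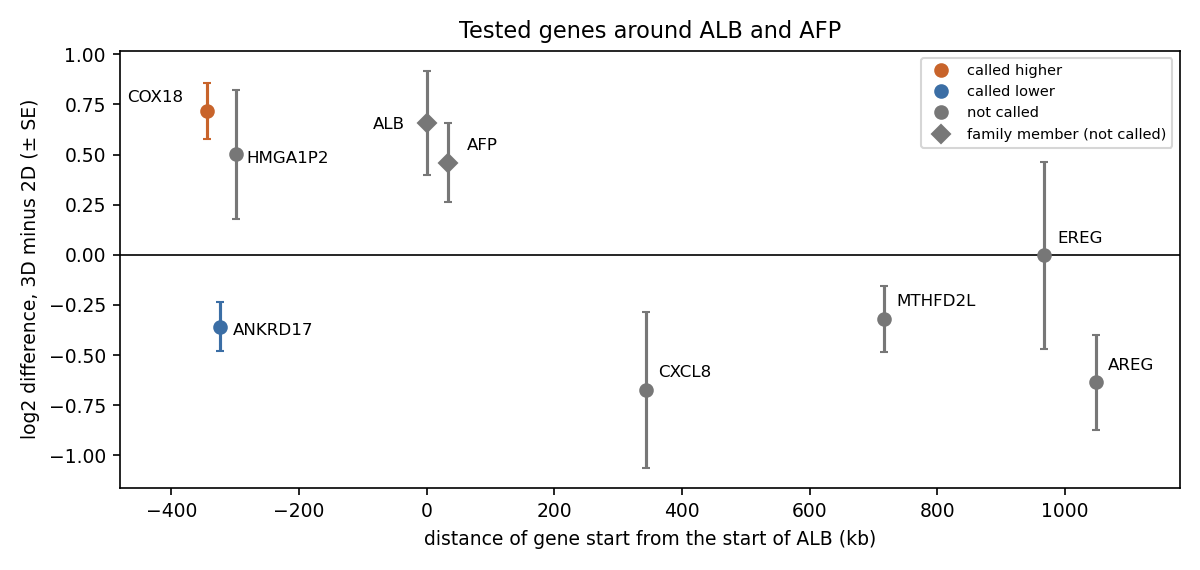
Log2 difference, 3D minus 2D, of the tested genes (± SE) by the distance of their start from the start of ALB in kb. ALB (0.66) and AFP (0.46) are diamonds and not called, COX18 (0.72) is the gene called higher, ANKRD17 (-0.36) is the gene called lower, and the genes to the right of AFP lie at or below 0.

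The genes whose profile over the 6 libraries was most like that of each member were found by the root mean square difference of centred log2 levels among 9827 genes with a mean of at least 10 CPM. For ALB the nearest was GPX2, which encodes an epithelial glutathione peroxidase, at a distance of 0.0941. GPX2 was at 157, 196 and 217 CPM on plates and at 185, 276 and 356 CPM in 3D, with 3D replicates 2 and 3 highest and 2D replicate 1 lowest, as in ALB. The gene was picked for its likeness over these libraries, so the shared order follows from the choice. The next nearest to ALB were PSMG1, TIMM8B, LRRC37BP1 and COX14.

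For AFP the nearest was HPR, at a distance of 0.0633, with PPIG, ALDH2, MRPL39 and GLMN after it. HPR, the haptoglobin-related gene, is nearly identical to HP, so its counts are uncertain. ALDH2, which encodes the mitochondrial aldehyde dehydrogenase, was at 107, 89.5 and 103 CPM on plates and at 118, 150 and 155 CPM in 3D. The second 2D library was lowest as in AFP, which again follows from the choice by likeness. AFP itself was only the 352nd nearest gene to ALB, at a distance of 0.298, and ALB the 2365th nearest to AFP. These distances describe 6 libraries that also differ in culture, medium and depth, and the part of each in the profiles was not tested.

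The lists in this and the following paragraphs were chosen with earlier results of these data known. Regulators of the family were read from a list of 38 factors, all tested. Of these 3 were called higher and 12 lower in 3D (7.89% and 31.6%, against 19% and 17.6% of all tested genes), with a median log2 difference of -0.04 beside 0.02 over all tested genes. CEBPA, the C/EBP factor of the mature hepatocyte, rose from 125 ± 17.5 to 212 ± 9.37 CPM (adjusted p = 0.00118, edgeR). CEBPB, which responds to inflammation and stress, fell from 354 ± 37.5 to 91.8 ± 33.7 CPM (adjusted p = 0.000465, edgeR), and so did CEBPG, with a log2 difference of -1.25. FOXA1 rose by 0.54 on the log2 scale.

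PPARGC1A, a coactivator of HNF4A, fell from 76.1 ± 13.1 to 15.1 ± 2.54 CPM (adjusted p = 1.89e-05, edgeR), and ONECUT2, HNF4G and PROX1 fell as well. Among the regulators that did not pass were HNF4A (log2 difference -0.12), FOXA2 (0.27), NR5A2 (0.72), and the AFP repressors ZHX2 (-0.23) and ZBTB20 (-0.08). The NR5A2 estimate rests on at most 23 counts in a library, with means of 1.02 CPM in 2D and 1.70 CPM in 3D. Its standard error was 0.37 (adjusted p = 0.149, edgeR). Without 3D replicate 2 FOXA2 passed and 7 regulators were called higher, and 6 were with the correction for length and GC content.

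Genes listed for receptors and handling of the encoded proteins, general secretion genes among them, numbered 22. Of these 17 were tested, 2 called higher and 4 lower (11.8% and 23.5%, against 19% and 17.6% of all tested genes), with a median log2 difference of 0.07. FCGRT encodes a chain of the neonatal Fc receptor, which returns albumin to the circulation. It measured 132, 137 and 133 CPM on plates against 164, 128 and 201 CPM in the bioreactor (log2 difference 0.29, adjusted p = 0.159, edgeR). B2M, the other chain of this receptor, had a negative estimate and was not called either (log2 difference -0.34, adjusted p = 0.140, edgeR). SPARC, which binds albumin, rose from 33.9 ± 12.9 to 71.7 ± 12.0 CPM (adjusted p = 0.00841, edgeR). The genes MIA3, MCFD2 and LMAN1 of the early secretory path fell by 0.78, 0.82 and 0.64 on the log2 scale. Other genes of that path on the list were not called, and whether any of them serves albumin or AFP was not tested. FCGRT passed without 3D replicate 2, and 1 gene of the list was called higher without any single 2D replicate or without 3D replicate 3. The vitamin D and vitamin E list, near to GC and AFM by function, had 5 of 12 genes called higher (41.7%, against 19% of all tested genes) and 0 lower (against 17.6%), with a median of 0.30. In it VDR, the vitamin D receptor, rose from 0.193 ± 0.121 to 1.83 ± 0.134 CPM, its 2D level being near that of 3 counts. CYP24A1, which degrades active vitamin D, rose from 6.53 ± 0.356 to 29.2 ± 16.0 CPM. Not all of the list pointed this way: 9 of the 12 estimates were positive and the others negative. Over the 18 alternatives 4 to 6 genes of this list were called higher.

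AFP was set beside 17 genes of fetal liver and of liver tumours, of which 6 were called higher and 5 lower (35.3% and 29.4%, against 19% and 17.6% of all tested genes), with a median log2 difference of -0.25. IGF2, the fetal growth factor, rose from 6525 ± 1326 to 17898 ± 3015 CPM (adjusted p = 0.00039, edgeR), a log2 difference of 1.46 beside 0.46 for AFP. GPC3, a surface proteoglycan used with AFP as a liver tumour marker, averaged 3111 ± 133 CPM on plates against 2315 ± 327 CPM in the bioreactor (log2 difference -0.43, adjusted p = 0.0458, edgeR). It was called in 10 of the 18 alternatives, and the list had 3 genes called lower without 2D replicate 1, without 2D replicate 3 or without 3D replicate 1.

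ALB was set beside 43 other serum proteins of the liver, of which 42 were tested, 5 called higher and 13 lower (11.9% and 31.0%, against 19% and 17.6% of all tested genes), with a median log2 difference of -0.20. APOA1, the main protein of HDL, rose from 1232 ± 159 to 3219 ± 541 CPM, and transferrin (TF), like ALB, had its lowest 3D level in replicate 1 (3512, 2996 and 3362 CPM in 2D, 3856, 5357 and 6870 CPM in 3D, adjusted p = 0.0178, edgeR). APOB, the main protein of VLDL and LDL, fell from 17756 ± 1051 to 6631 ± 2107 CPM (adjusted p = 0.000614, edgeR), and AHSG, which encodes fetuin-A, fell by 0.87 on the log2 scale. Without 3D replicate 1, 11 of these genes were called higher. TF was called in 14 of the 18 alternatives.

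**Figure D4:**
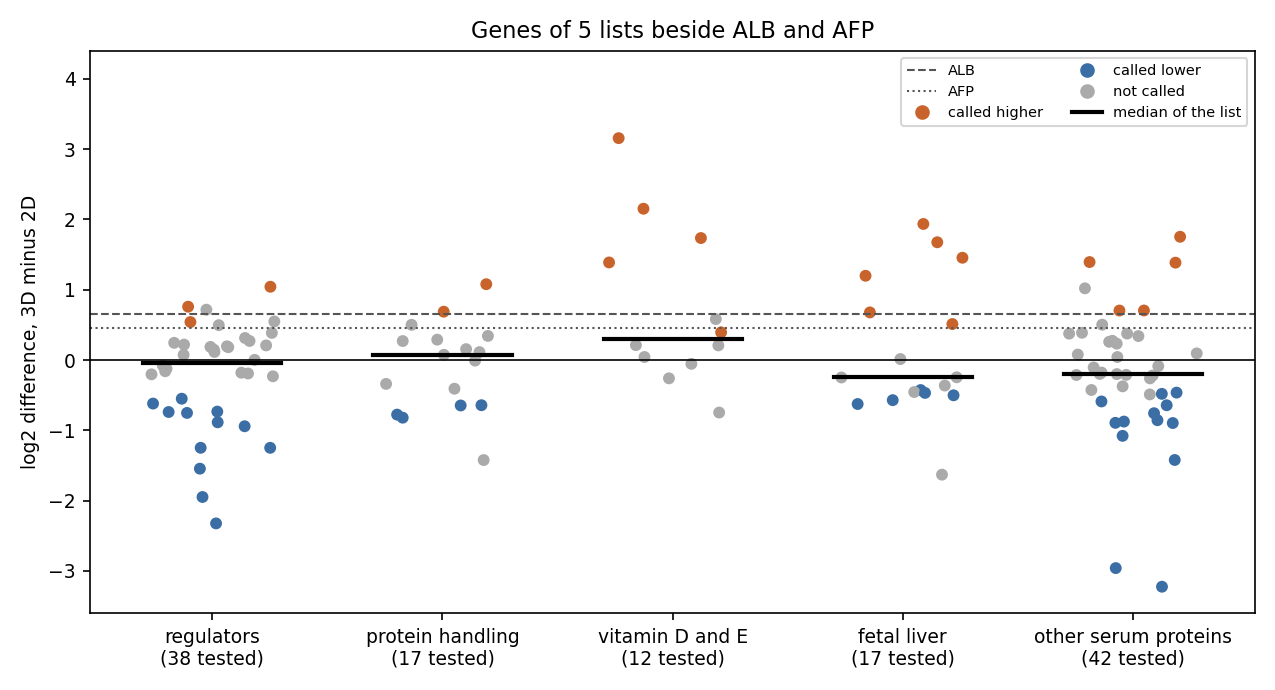
Log2 difference, 3D minus 2D, of the tested genes of each list (points spread sideways at random, orange for called higher, blue for called lower, grey for not called), with the list median as a bar and ALB and AFP as dashed and dotted lines. List medians lie between -0.25 and 0.30, below both ALB (0.66) and AFP (0.46), and every list except vitamin D and E has genes called in both directions.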

How the data were processed

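Unscaled estimated counts were deposited by the authors, 1 column per sample and 1 row per gene. The submitters' processing notes name STAR 2.4.1d, Partek and hg38. For the annotation release, read filters, strand handling and reads that match several genes, nothing is given in the sources used here. Of all values 61.7% were whole numbers. They were rounded, which moved a library total by 25.0 counts at most. The lowest total of a listed gene was 10.

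Members were set by symbol and not by their values, but they, the lists and the tests were chosen with earlier results of these data known. edgeR 4.0.16 (R 4.3.3) was run with filterByExpr, TMM scaling and a robust quasi-likelihood fit of culture on all 6 samples, adjusted over 15314 genes. A gene was called, and is said to have risen or fallen, at an adjusted p under 0.05. Standard errors come from the F statistic. Levels are TMM-scaled CPM, and log2 levels for profiles carry a prior count of 3. Exon lengths and GC content came from GENCODE release 29 (16132 genes matched by symbol, 295 by an older symbol, 89.8% of tested genes with both values). Promoter windows are from RefSeq on GRCh38.p14, matched by symbol for 3 of 3 members.

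Alternatives were DESeq2 1.42.0, limma-voom (limma 3.58.1), RLE and upper-quartile scaling, TMM without mitochondrial and the 50 most abundant genes, library totals without the members, 2 other low-count filters, the replicate block, a loess correction (span 0.5) for length and GC content with and without the block, and leaving out each sample or 2D replicate 2 with 3D replicate 1. Runs of the lists without these libraries were added after seeing the data. The genes named were the members, the tested neighbours, up to 6 called genes per direction of each list, 9 set genes, and the 5 nearest profiles. B2M was named beside FCGRT. Not every gene this allows is named, and some list members are not reported here. The fit was also run on simulated counts in which far fewer genes differed than were called here. The outcome of that run is not given, so it is no support for the calls. No 2 libraries of a group agreed within sampling noise (chi-square per degree of freedom 10.3 to 26.7).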

Additional observations from a re-analysis of the deposited data

How the results depend on the processing

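ALB and AFP kept a positive log2 difference in all 18 alternatives run. ALB passed the threshold, which it missed in the main edgeR fit, with DESeq2 (0.65), the replicate block (0.62, adjusted p = 0.0397, edgeR) and the replicate block with length and GC correction (0.59). ALB also passed without 3D replicate 1 (0.88, adjusted p = 0.00576, edgeR) and without 2D replicate 2 and 3D replicate 1 together (0.87). AFP passed with DESeq2 (0.45) and without 3D replicate 1 (0.60, adjusted p = 0.0183, edgeR), and with the replicate block it was at 0.46 (adjusted p = 0.147, edgeR). Deviations of equal numbers correlated at 0.053, -0.009 and -0.078 over all tested genes, and those of unequal numbers at -0.081 to 0.103. Such small correlations cannot decide whether equal numbers share a culture, and the labels do not say. Without each replicate in turn, ALB lay between 0.38 and 0.88 and AFP between 0.31 and 0.60. AFM lay between -0.14 and 1.19, and turned negative without 3D replicate 3. The ALB to AFP ratio lay between -0.076 and 0.31, and turned negative without 2D replicate 1 (exact permutation p = 0.8). Genes called higher numbered 2910, and 1938 to 2817 without single replicates, with 1938 without 2D replicate 1. Genes called lower numbered 2697, and 1828 to 2792. The cause of these shifts was not tested. Per kilobase, ALB relative to AFP averaged 0.926 with summed exon lengths and 1.05 with the longest transcript. Length from coding sequences was not run, and the fits for AFM (below the filter) and GC were not run. Depth limits AFM alone among the members analysed.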
